A study of Rattus norvegicus with 2 samples.

Results

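Vasopressin, oxytocin and the vasopressin receptors were followed in hypothalamic tissue of SHR, the spontaneously hypertensive rat, whose blood pressure rises as it ages. The members were the genes Avp, Oxt, Avpr1a, Avpr1b and Avpr2, taken by name. Matching the RefSeq accession of each probe to a rat gene table gave 6 probes for these 5 genes, of 45591 probes and 39500 genes and unnamed transcripts in all. Each of the 6 probes was printed on 1 spot per array. Both groups were SHR aged 9 weeks, and the labels name no treatment. Each sex was represented by 1 pool, to which each of 5 rats gave 100 ng of hypothalamic RNA, and each pool was hybridised to 1 single-colour (Cy3) Agilent array. Pooling removes the spread between rats and each sex had 1 array, so the differences carry no test and hold for these 2 pools alone.

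Vasopressin and oxytocin are short peptide hormones made mainly by large neurosecretory neurons of the paraventricular and supraoptic nuclei, whose axons release them into the blood in the posterior pituitary. Vasopressin is also made by clock neurons of the suprachiasmatic nucleus and by smaller paraventricular neurons that act on the pituitary. It retains water through the V2 receptor of the kidney, encoded by Avpr2, and constricts vessels through the V1a receptor, encoded by Avpr1a, which is also the main vasopressin receptor of the brain. The V1b receptor, encoded by Avpr1b, is known from pituitary corticotrophs and from the CA2 field of the hippocampus. The comparison bears on the series' question of how brain centres of cardiovascular control differ between the sexes in this strain.

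Values are processed spot signals in scanner units, with the background already subtracted. Each array carried 58717 rat transcript spots, of which 71.6% for males and 73.0% for females were flagged by the scanner software as well above background. The spot signal at the 75th percentile came to 2203 units for males and 2254 units for females. Levels are log2 signals relative to that percentile, so that a level of 0 is the 75th percentile of the array. Differences are male minus female levels. Having 1 array per sex limits the precision throughout. A probe's brightness depends on its sequence as well as on its transcript, so signals of different probes are not set against each other. In bulk tissue, fewer cells of a type and less RNA per cell cannot be told apart.

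Both hormone precursor genes gave very bright signals in both pools, and the pools lay close together. Avp, the gene of the vasopressin precursor, gave 68339 units in the male pool and 63410 units in the female pool. Oxt, the gene of the oxytocin precursor, gave 23234 units in the male pool and 24248 units in the female pool. Avp was slightly brighter in the male pool and Oxt in the female pool. Relative to the 75th percentile, Avp stood at 31.0 times in the male pool and 28.1 times in the female pool, and Oxt at 10.5 times and 10.8 times. The receptor probes lay below the 75th percentile in both pools. Avpr1a was brighter in the female pool, Avpr2 was close to the background, and Avpr1b was not well above background in either pool.

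**Figure D1:**
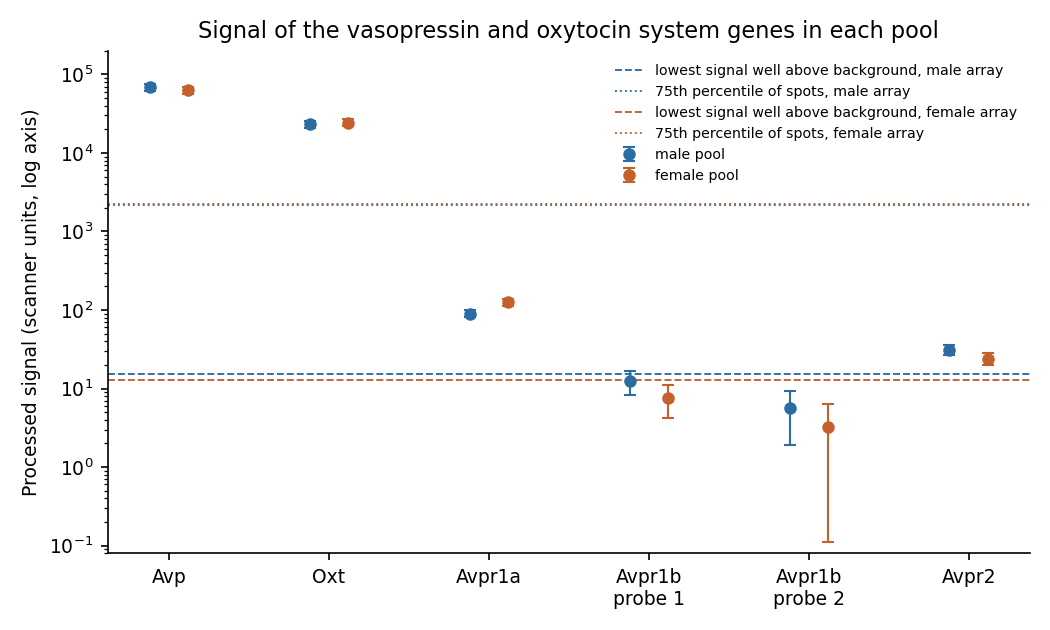
Processed signal (scanner units, log axis) of each probe in the male pool (blue) and the female pool (orange), with bars for the scanner software's error of the spot. Avp and Oxt lie above the 75th percentile of spots (dotted), Avpr1a and Avpr2 lie below it but above the lowest signal well above background (dashed), and both Avpr1b probes lie below the dashed lines.

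Avp and Oxt are neighbouring genes on rat chromosome 3 and are transcribed towards each other. The 250 bases before the annotated start of each gene are shown because they are the nearest regulatory sequence of the 2 hormone genes. The sequences are from RefSeq (GRCr8). The Avp stretch is chr3:138248523-138248772 on the minus strand and the Oxt stretch is chr3:138235504-138235753 on the plus strand. Capitals mark matches on either strand to 3 motifs, namely CACGTG (the E-box bound by clock factors, its own reverse complement), TGACG (a cyclic AMP response core, CGTCA on the other strand) and TGACC (a nuclear receptor core, GGTCA on the other strand).
Avp: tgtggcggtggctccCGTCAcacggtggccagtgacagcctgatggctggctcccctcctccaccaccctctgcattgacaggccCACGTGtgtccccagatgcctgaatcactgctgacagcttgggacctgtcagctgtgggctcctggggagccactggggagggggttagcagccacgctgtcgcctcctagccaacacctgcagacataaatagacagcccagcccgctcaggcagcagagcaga
Oxt: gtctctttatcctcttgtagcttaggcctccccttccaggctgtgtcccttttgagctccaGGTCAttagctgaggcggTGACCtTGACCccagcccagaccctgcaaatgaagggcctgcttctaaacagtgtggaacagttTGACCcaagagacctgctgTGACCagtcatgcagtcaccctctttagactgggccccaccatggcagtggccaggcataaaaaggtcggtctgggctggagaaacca

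With -1 as the base just before the start, the Avp stretch held 1 E-box that began at -165 and 1 cyclic AMP core that began at -235, and no TGACC. The Oxt stretch held 5 TGACC cores, which began at -189, -171, -165, -107 and -88, and neither an E-box nor TGACG. Over the same 250 bases of 27457 rat genes, CACGTG was present in 5.79%, TGACG in 19.0% and TGACC in 35.2%. The full cyclic AMP response element TGACGTCA, which contains TGACG, was in 1.70% of these stretches and in none of the 5 members. Of the receptor genes, Avpr1a held 1 TGACG, and Avpr1b and Avpr2 held none of these letters. These matches describe the sequence only.

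The rank of each precursor within its array was nearly the same in both pools. Avp ranked 104th of 45591 probes on the male array and 117th on the female array, which are the percentiles 99.77 and 99.74. Oxt ranked 613th on the male array and 589th on the female array, at percentiles of 98.66 and 98.71. The median shift in percentile between the arrays, over all probes well above background on both, was 0.588 points in either direction, and the shifts of Avp (0.029 points) and Oxt (-0.053 points) were smaller. Ranks at the top of an array leave little room to shift.

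After scaling, the log2 difference was 0.14 for Avp, or 10.3% higher in the male pool, and -0.03 for Oxt, or 1.02-fold higher in the female pool. Repeat spots of other probes in the same signal range, at levels above 2, gave a technical SD of 0.067 for a difference on 1 spot. The Avp difference was 2.11 times that SD and the Oxt difference 0.42 times. The scanner software's own error, was 0.20 for each difference, and both differences were within it. Among 1406 genes and transcripts at levels above 2, the middle 90% of differences ran from -0.11 to 0.11, and 4.69% were at least as far from 0 as Avp. For Oxt this share was 68.2%. The difference of Avp minus that of Oxt was 0.17, against 0.095 from the technical SD and 0.29 from the software's error, so the pools were not separated on the balance of the 2 hormones beyond the larger of these errors. Avp and Oxt code for similar carrier proteins, the neurophysins. Probe sequences were not used here, and how much of either signal comes from the other transcript was not tested.

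Avpr1a, which encodes the Gq-coupled V1a receptor, gave 89.9 units in the male pool and 125 units in the female pool. These were 4.08% and 5.55% of the 75th percentile, at local backgrounds of 31 and 32 units. Of 308 negative control spots, which carry a sequence with no rat transcript, 3 were as bright as the Avpr1a spot in males and 0 in females. The log2 difference was -0.44, or 1.36-fold higher in the female pool. It was 1.81 times the technical SD of 0.25 at levels of -6 to -4 and 2.09 times the software's error of 0.21. Of 5850 genes and transcripts in that range, 10.2% were at least as far from 0. Its rank went from the 54.3rd percentile on the male array to the 58.2nd on the female array, a shift of -3.93 points. Of all probes well above background on both arrays, 95% shifted by at most 3.61 points. That bound covers probes of every signal level, not only those as dim as Avpr1a. With normexp background correction, which models background on each array and adds an offset of 50 units, the difference was -0.21.

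Avpr2, which encodes the Gs-coupled V2 receptor and lies on the X chromosome, gave 31.3 units in the male pool and 24.1 units in the female pool. The signals were 1.42% and 1.07% of the 75th percentile and about 2 times the lowest signal that counted as well above background, 15.3 units in males and 12.9 units in females. The log2 difference was 0.41, or 1.33-fold higher in the male pool. It was 0.95 times the technical SD of 0.43 at levels below -6 and 1.27 times the scanner software's error of 0.32 for this difference. Among 2414 genes and transcripts in that range, 18.3% were at least as far from 0. The difference was 0.23 with normexp and 0.63 from spot medians minus local background. Of the 308 negative control spots, 7 were as bright as the Avpr2 spot in males and 7 in females.

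Avpr1b, which encodes the V1b receptor, had 2 probes. The first gave 12.5 units in the male pool and 7.65 units in the female pool, and the second gave 5.66 and 3.27 units. The software's error was 4.16 and 3.47 units for the first probe and 3.75 and 3.15 units for the second. Neither probe was well above background on either array, so no fold is given, and a difference was not detectable at this signal. The male spot was the brighter on both probes, and the negative control spots were brighter on the male array too, with medians of 3.62 and 3.07 units. On the first probe 11 of 308 negative control spots were as bright in males and 9 in females. On the second the numbers were 12 and 75.

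None of the 4 members measured in both pools was at least 2-fold apart, in either direction. Over all 26109 genes and transcripts that were measured, meaning well above background in 1 pool or both, 4.17% were at least 2-fold apart, of which 2.54% in favour of males and 1.64% in favour of females. Among the 24140 measured in both pools the share was 1.76%. With 4 genes, a count of 0 is close to what these shares give. Large differences elsewhere lay together on the slide: 73.0% of 1602 spots at least 2-fold apart were in patches, meaning that among the 18 measured spots closest by, from other probes, 2 or more shared a 2-fold difference of 1 sign, against 10.6% of other measured spots. None of the 4 member spots was in such a patch. The median difference of the 18 spots around each member was 0.04 at Avp, -0.02 at Oxt, -0.02 at Avpr1a and -0.02 at Avpr2. The spots around Avpr1a ran from -0.37 to 0.62, so the Avpr1a spot, at -0.44, was lower in the male pool than these. Around Oxt 2 spots were at least 2-fold apart, of opposite sign at -1.82 and 1.63, and around Avpr2 1 spot was, at 3.75.

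**Figure D2:**
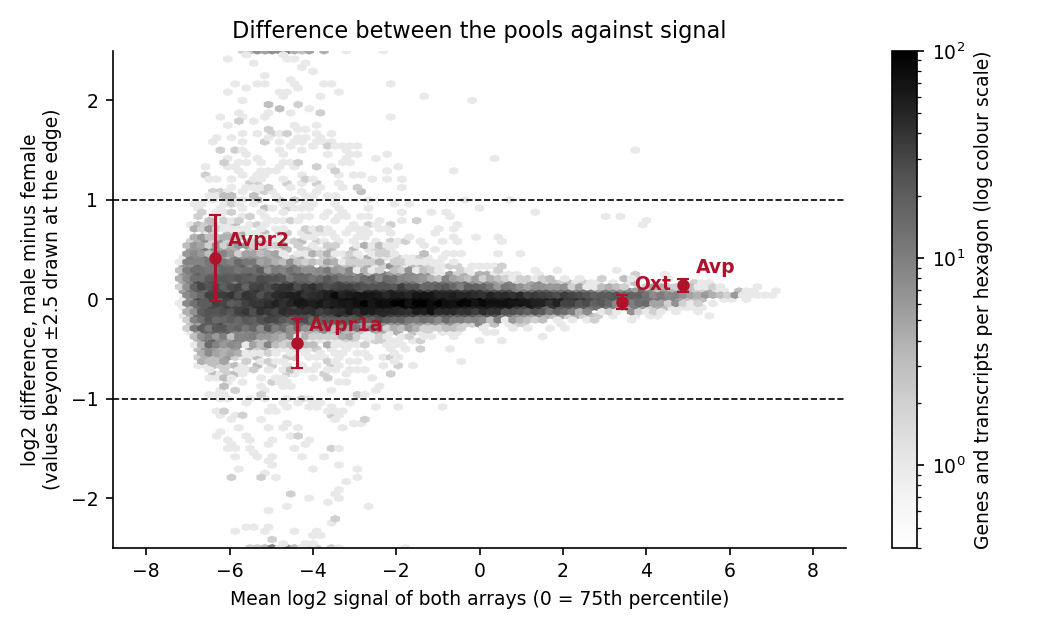
log2 difference, male minus female, against the mean log2 signal of both arrays for the genes and transcripts well above background on both (grey hexagons, darker for more genes), with the 4 measured members in red and bars of 1 technical SD. Avp at 0.14 and Oxt at -0.03 sit at the bright end where the cloud is narrow, Avpr1a at -0.44 and Avpr2 at 0.41 sit at the dim end where it is wide, and all lie inside the dashed 2-fold lines.

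The tissue label was set against marker genes. Of 8 hypothalamic neuron markers, 7 were well above background on both arrays (2 higher and 5 lower in males). Their summed signal was 108769 units in males and 123587 in females, and 9107 and 9077 units without Pmch, the brightest; Agrp at 0.17 and Pomc at 0.24 were the higher ones. Otp, a transcription factor gene needed for vasopressin and oxytocin neurons, passed the background flag only in females, where it gave 15.01 units against 3.27 units in males. The lowest signal well above background was 12.9 units on the female array and 15.3 units on the male array, so no fold is given for Otp. Markers of other cells differed between the pools in some lists and little in others. All 8 meningeal fibroblast markers were higher in the male pool, with summed signals of 9081 and 3738 units, as were all 4 red blood cell markers, at 3948 and 2270 units. Of 8 anterior pituitary markers with a probe, 6 were measured and 5 were well above background on both arrays. The list summed to 3188 units in males and 1596 units in females, with Gh1 and Fshb not well above background in either. Without Cga, which lay in a patch, the sums were 1319 and 1127 units. Outside patches, Tshb gave 257 units in the male pool and 21.2 units in the female pool, a difference of 3.64. Lhb at 0.35 and Pitx1 at 0.09 were also outside patches. Pou1f1 was at -0.32 and Prl passed the background flag only in females, both in patches. Of 5 neuron markers 4 were lower in the male pool, with sums of 29263 and 32289 units. The suprachiasmatic markers Vip at 0.13, Lhx1 at -0.18 and Rorb at 0.04 went both ways, and Six6 was bright in the female pool only on a spot in a patch. The median difference was 0.004 for 3 thalamus markers and -0.08 for 3 markers of pituicytes and tanycytes, which ran from -0.15 to 0.46. It was -0.19 for 3 hippocampal CA2 markers, and -0.24 for 4 bed nucleus and amygdala markers, which ran from -0.58 to 0.09. The part of these cells in the member values was not tested.

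The other genes of the pathway came from 10 lists, which held 127 genes beside the members. Of these 118 had a matched probe, and 111 were well above background on both arrays. In males 36 of these were higher and 75 lower, and their median log2 difference was -0.07. Over all genes and transcripts the counts were 10851 and 13289 and the median was -0.02. Of 114 measured in 1 pool or both, 1 reached 2-fold towards males and none towards females. Over all genes and transcripts measured in this way, 4.17% were at least 2-fold apart in either direction, so the lists held no excess. The direction of 18 of the 111 changed under normexp, median centring or quantile normalization. With normexp the counts were 45 and 66 and the median was -0.03. All genes then had 12909 higher and 11227 lower in males and a median of 0.01.

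Oxtr, the oxytocin receptor gene, gave 11.7 units in the male pool and 9.52 units in the female pool and was not well above background in either. The other 4 genes of peptide release and breakdown went 3 towards males and 1 towards females. Ece1, which encodes a peptidase that makes endothelin, was at 0.40 with a technical SD of 0.25. Cd38, which encodes an enzyme needed for oxytocin release in mice, was at 0.15, and at 0.00 with normexp. The 11 genes of prohormone processing include enzymes that cut or amidate precursors, their inhibitor and chaperone, and granins. On brightest probes 10 were higher and 1 lower in females, with a median of -0.10. Over all genes and transcripts 13289 were higher and 10851 lower in females. Cpe, 1 of the 10, was at -0.01, and at 0.01 with normexp. Scg2, a granin gene of dense core vesicles, was at -0.15. On brightest probes the exception was the convertase gene Pcsk5 at 0.58, which lay in a patch, and its second probe was at -0.04. Second probes of Pcsk1 and Pam were at 0.23 and 0.03, against -0.12 and -0.14 on the brightest.

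On their brightest probe, the 5 genes of the list of neurosecretory lineage transcription factors that were measured in both pools were lower in males. They lay between -0.55 and -0.07, and their median of -0.27 was the value of Nkx2-1. That gene was also counted among the hypothalamic neuron markers, so the list is not specific to the neurosecretory lineage. Sim1, which is required for paraventricular and supraoptic neurons in mice, gave 56.0 units in the male pool and 75.1 units in the female pool, a difference of -0.39, and Ebf3 gave 59.4 and 89.1 units, a difference of -0.55. Both had a technical SD of 0.25, and with normexp they were at -0.22 and -0.34. A second Arnt2 probe was at 0.21, against -0.07 on its brightest probe. Avp and Oxt, which mark the mature neurons of this lineage, were at 0.14 and -0.03. Among 9 measured regulators of vasopressin synthesis, 6 had a positive and 3 a negative difference, and the median of 0.02 changed sign with median centring. Fosl2, which encodes an AP-1 factor, was the only gene of the lists at least 2-fold apart, at 1.37. It was on a spot in a patch, and its other probes were at 0.26 and 0.17.

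**Figure D3:**
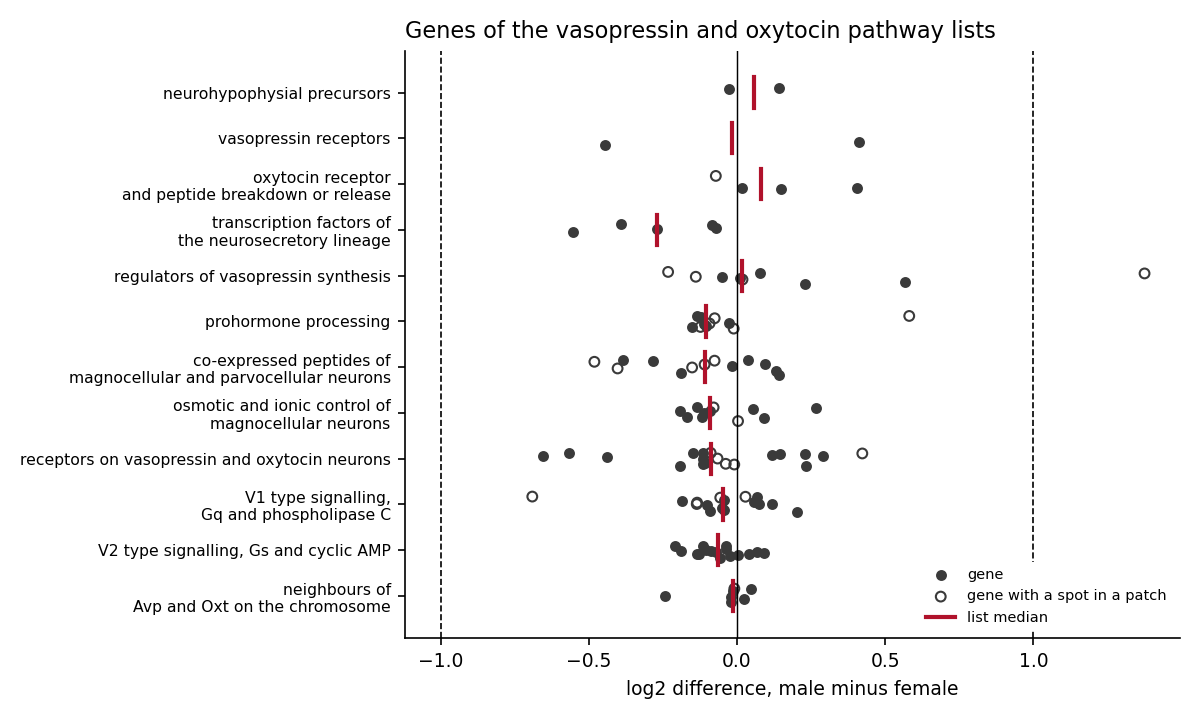
log2 difference, male minus female, of each gene well above background on both arrays in the members' and pathway lists (points, open where the gene has a spot in a patch), with the list median in red and the 2-fold lines dashed. Most medians lie just below 0, and the list of lineage transcription factors has the lowest at -0.27, the value of Nkx2-1. Fosl2 at 1.37 is the only point beyond a dashed line.

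Peptides found in the same or neighbouring neurons were mostly lower in males, in 9 genes of 13, and their median was -0.11. Over all genes and transcripts 13289 of 24140 were lower in males, which also stands beside the counts of the lists that follow. Crh, whose peptide acts with vasopressin on the corticotrophs, gave 395 units in the male pool and 534 units in the female pool, a difference of -0.40 within a patch, and its second probe lay at -0.54. Nmu, which codes for neuromedin U, also lay in a patch, at -0.48. Genes of osmotic and ionic control numbered 4 with a positive and 7 with a negative difference (median -0.09). Aqp4, the astrocyte water channel gene, was at 0.27 and Hcn3, a pacemaker channel gene, at -0.19. Receptors carried by these neurons numbered 6 and 13 in the same order (median -0.09). Rxfp1, the relaxin receptor gene, gave 45.3 units in the male pool and 73.0 units in the female pool, a difference of -0.65. The technical SD at this dim signal was 0.25, and with normexp Rxfp1 was at -0.42. Oprk1, the receptor gene for the dynorphin that these neurons release, was at -0.57, with a technical SD of 0.43 and a value of -0.15 with normexp.

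Genes that carry receptor signals formed 2 lists. For the V1 type, which uses Gq and phospholipase C, 6 genes had a positive and 10 a negative difference, around a median of -0.05. Gnaq, which encodes the Gq subunit, lay in a patch at -0.69, and at -0.32 with normexp, and the receptor kinase gene Grk5 was at 0.20. For the V2 type, which uses Gs and cyclic AMP, 4 genes had a positive and 12 a negative difference, around a median of -0.06. On brightest probes the largest differences there were in the adenylyl cyclase genes Adcy6 at -0.21, with -0.04 on a second probe, and Adcy9 at -0.19. Among other probes, 1 of Prkar2a, a protein kinase A subunit gene, was at 0.57 with -0.04 on its brightest, and 1 of Gnas was at -0.27 with 0.07 on its brightest.

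The 5 annotated genes on each side of the Oxt and Avp pair were also read, of which 7 of 10 had a matched probe. Of these, 6 lay within 0.05 of 0. On the Oxt side they were Mrps26, a mitochondrial ribosome gene, at -0.02 and the phosphatase gene Ptpra at 0.05, and further out the vesicle sorting gene Vps16 was at -0.24. On the Avp side Ubox5 was at -0.01, Lzts3 at 0.02, Ddrgk1 at -0.02 and Itpa at -0.01. The sign of Lzts3 changed under median centring and quantile normalization. The second Ubox5 probe was at -0.18. On the brightest probe of each gene, the Avp difference of 0.14 was larger than those of its 4 measured neighbours on that side. Vps16 on the other side and the second Ubox5 probe were further from 0 than Avp.

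The member differences kept their direction under the 4 settings that could move them, namely normexp, median centring, quantile normalization and spot medians minus local background. Keeping outlier spots and using the series matrix could move them by no more than rounding, since no member spot carried an outlier flag and the matrix is the same signal rescaled. Avp ran from 0.11 to 0.15, Oxt from -0.06 to -0.001, Avpr1a from -0.49 to -0.21 and Avpr2 from 0.23 to 0.63. These ranges cover processing only, and no setting brought a member to the 2-fold line.

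**Figure D4:**
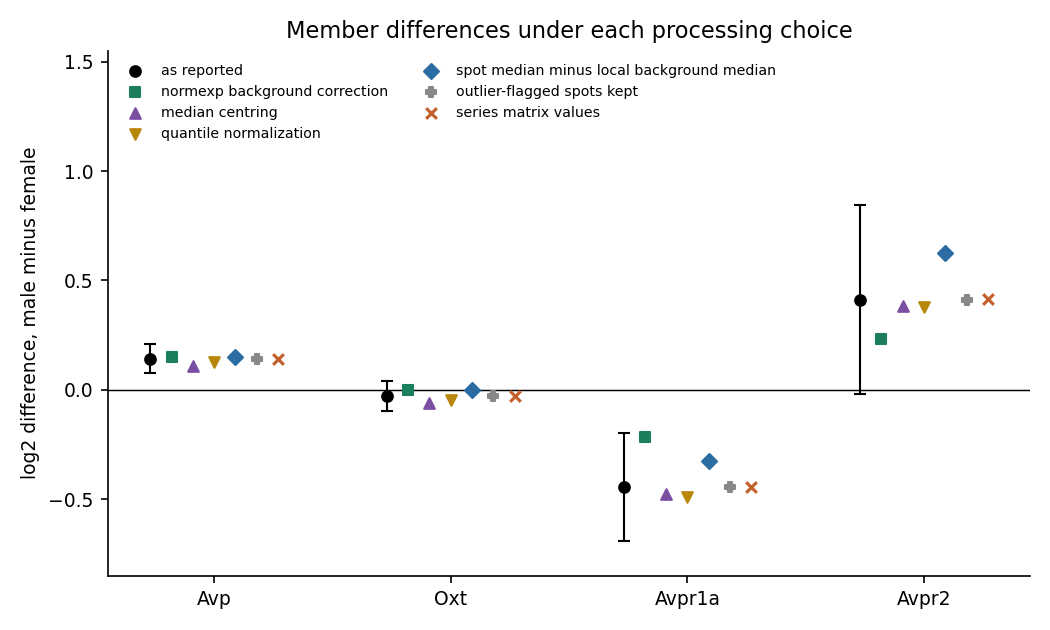
log2 difference, male minus female, of Avp, Oxt, Avpr1a and Avpr2 as reported (black, with a bar of 1 technical SD) and under 6 other processing choices (coloured marks). Avp and Oxt barely move, Avpr1a goes from -0.44 to -0.21 with normexp, and Avpr2 spans 0.23 to 0.63 within its bar.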

How the data were processed

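The array files hold intensities deposited by the authors: per the file headers, Feature Extraction 11.5.1.1 subtracted background and flagged outlier, saturated and dim spots (rn4 design), whereas the submitters' processing notes name version 9.1. The deposited series matrix also holds intensity values; all 42947 per array were within 1% of the array file's value expressed as a percent of the 75th percentile. Both arrays were on 1 slide.

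Outlier-flagged spots (664) were removed, and none was saturated. Log2 processed signals were centred on the 75th percentile and averaged per probe. RefSeq accessions were matched to gene symbols of GRCr8, which named 46.3% of probes. The brightest probe stood for a list gene; every probe was used for a member. A probe needed over 50% of its spots well above background. Technical SDs came from repeat spots by signal range and cover printing and scanning only. The size threshold was 2-fold, and steps were tested on simulated data. Alternatives used limma 3.58.1 (normexp on spot medians, offset 50; quantile), median centring, spot medians minus local background, kept outliers and the series matrix, and for lists also mean over probes, all probes and no spots in patches. Members and lists were chosen with earlier results of these data known. From each list the text names genes at least 2-fold apart, otherwise the 2 largest differences, with Oxtr, all chromosomal neighbours and a few markers. Protein identity between members was not analysed here.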

Additional observations from a re-analysis of the deposited data

How the results depend on the processing

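The 4 member differences kept their sign and stayed within 1 technical SD of the reported value in 16 values from 4 settings; 8 more, from kept outliers and the series matrix, could differ by rounding only. All 54 alternative list medians stayed within 1 technical SD of a difference on 1 spot. That is a wide measure for a median over several genes. The median for osmotic and ionic control went from -0.09 to -0.008 with normexp. The median for regulators of vasopressin synthesis went from 0.02 to 0.12 with the mean over probes. Of the 54 values, 53 kept their sign, and the exception was these regulators under median centring, at -0.01. The genes and transcripts at least 2-fold higher numbered 662 towards males and 428 towards females, and 305 and 186 with normexp, where the cause was not tested. They numbered 111 and 33 without spots in patches, and 278 and 148 among those well above background on both arrays, which tests fewer genes. Ranked only among probes well above background on both arrays, Avpr1a stood at percentiles of 27.4 and 33.4 and Avpr2 at 8.50 and 4.07, in the male and female pools. No paired analysis was possible because each sex had 1 array, and no replicate could be left out. Signal over background limits Avpr2, Avpr1b and Oxtr.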
